A study of Homo sapiens with 8 samples.

Results

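NF-kB subunits and feedback inhibitors were taken as 10 genes: the 5 subunits NFKB1, NFKB2, REL, RELA and RELB, and the inhibitors NFKBIA, NFKBIE, NFKBIZ, BCL3 and TNFAIP3. The members were all array probes whose platform gene symbol is one of these names. They came to 14 probes of 10 genes, among 18850 genes with a probe of 1 symbol (28094 probes) and 48798 probes in all. The study asked what depletion of TRPM2-AS (an RNA from the opposite strand of TRPM2, which encodes a cation channel) does to gene expression in PC3, an established human prostate carcinoma line that was derived from a metastasis. One group received an siRNA against TRPM2-AS (4 samples) and the other a non-specific control siRNA (4 samples). The medium of both groups was DMEM supplemented with FBS and L-glutamine, and RNA was harvested 48 hours after transfection. How the replicates were made is not given beyond their number, 1 cell line was used, and p-values therefore reflect the spread among these samples alone, part of which may be technical. No probe was named for TRPM2 or TRPM2-AS (0 probes), so the depletion was not checked here.

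NF-kB is a family of dimeric transcription factors. RELA, RELB and REL carry transactivation domains, while NFKB1 and NFKB2 encode precursors that are processed to the DNA-binding proteins p50 and p52. In resting cells inhibitors of the IkB family, NFKBIA (IkB alpha) and NFKBIE (IkB epsilon), hold the dimers in the cytoplasm. The IKK kinase complex marks these inhibitors for degradation, the dimers enter the nucleus, and among their targets are the genes of several subunits and of their own inhibitors. TNFAIP3 (A20) is a ubiquitin-editing enzyme that acts on signalling upstream of IKK, and NFKBIZ (IkB zeta) and BCL3 are nuclear IkB proteins that can act as coactivators as well as inhibitors. PC3 cells are known for constitutive NF-kB activity.

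The promoter sequences are shown for matches to the DNA motif that NF-kB dimers bind. Genes of several subunits and inhibitors are known NF-kB targets, so the motif is not independent of the choice of members. The motif was found in 7 of the 8 genes searched and in neither RELA window. RefSeq windows on build GRCh38.p14, from 250 bases before to 50 bases after an annotated transcript start, were matched by symbol for 8 of the 10 genes (13 windows of 300 bases, since several genes have more than 1 start). RELB and NFKBIE were not among them. Both strands were searched for the NF-kB consensus, and for a stricter form of it (GGGA, any base, then TTTCC), whose matches are all consensus matches too. Capitals mark matches to the consensus, and each window is written 5′ to 3′ on the strand of its gene. NFKBIA lies at chr14:35404700-35404999 (minus strand), TNFAIP3 at chr6:137867009-137867308 (plus), the second NFKB2 window at chr10:102394328-102394627 (plus) and the first NFKB1 window at chr4:102501109-102501408 (plus).
NFKBIA: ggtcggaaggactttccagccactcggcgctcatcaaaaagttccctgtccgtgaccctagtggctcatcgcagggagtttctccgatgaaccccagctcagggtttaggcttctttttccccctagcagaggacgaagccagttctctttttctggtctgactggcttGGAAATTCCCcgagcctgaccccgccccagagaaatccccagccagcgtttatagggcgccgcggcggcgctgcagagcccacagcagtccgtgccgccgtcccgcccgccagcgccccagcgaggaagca
TNFAIP3: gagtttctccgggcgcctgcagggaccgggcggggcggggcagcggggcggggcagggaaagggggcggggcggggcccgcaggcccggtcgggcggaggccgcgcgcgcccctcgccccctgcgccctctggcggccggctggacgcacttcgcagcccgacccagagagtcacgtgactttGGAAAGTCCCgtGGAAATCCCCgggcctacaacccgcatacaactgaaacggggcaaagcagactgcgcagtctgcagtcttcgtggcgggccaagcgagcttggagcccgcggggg
NFKB2: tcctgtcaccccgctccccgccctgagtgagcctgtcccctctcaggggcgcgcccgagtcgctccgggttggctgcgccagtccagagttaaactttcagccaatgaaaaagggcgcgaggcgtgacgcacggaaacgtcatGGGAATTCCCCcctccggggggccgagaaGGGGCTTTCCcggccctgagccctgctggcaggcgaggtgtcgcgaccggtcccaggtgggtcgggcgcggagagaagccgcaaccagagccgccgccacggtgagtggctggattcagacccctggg
NFKB1: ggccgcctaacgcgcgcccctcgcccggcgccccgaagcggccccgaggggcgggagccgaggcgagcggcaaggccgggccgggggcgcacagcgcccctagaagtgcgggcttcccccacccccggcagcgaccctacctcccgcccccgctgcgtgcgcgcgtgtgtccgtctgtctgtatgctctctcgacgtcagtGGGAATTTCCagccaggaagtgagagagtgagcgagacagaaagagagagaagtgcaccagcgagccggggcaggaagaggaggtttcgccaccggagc

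The consensus occurred in 9 of the 13 windows and in 7 of the 8 genes, against 11.3% of all 35116 windows and 13.3% of 27305 genes. The strict form occurred in 6 of the 13 windows and 6 of the 8 genes, against 0.558% of all windows and 0.677% of genes. The 6 genes were NFKBIA, TNFAIP3, NFKBIZ, NFKB2, NFKB1 and REL. These shares were not matched for base composition (51.3% to 80.0% G or C in the member windows). In NFKBIA the match began 81 bases before the start, on the opposite strand. TNFAIP3 held 2 matches, the strict one 67 bases and the other 55 bases before the start. The second NFKB2 window held 3 matches, 2 of them overlapping, and the third held the strict form 21 bases before its start. In NFKB1 the first window held GGGAATTTCC 49 bases before its start and its second window no match. Neither of the 2 RELA windows had a match. A match is a description of letters in the window and says nothing of binding in these cells.

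**Figure D1:**
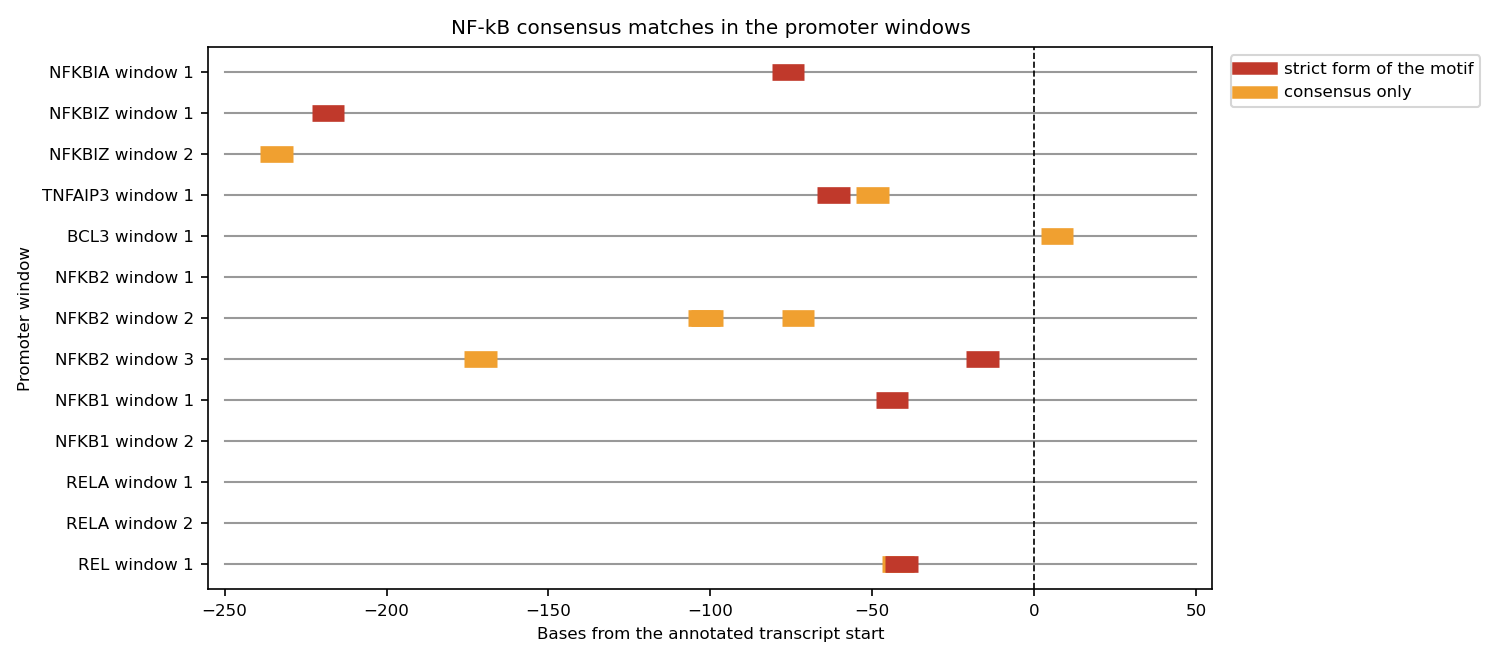
Positions of NF-kB consensus matches (both strands) in 13 promoter windows of 8 genes, in bases from the annotated transcript start (dashed line), with the strict form in red and other consensus matches in orange. Matches are seen in 9 windows, and 4 windows, both of RELA among them, have none.

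On the arrays, 7 raw columns could be traced to samples, TRPM2-AS siRNA replicates 1, 2 and 4 and control siRNA replicates 1 to 4. The processed table of the authors holds all 8 samples. The traced TRPM2-AS siRNA arrays detected 13832 to 14318 probes and the control siRNA arrays 13163 to 13972, a probe counting as detected at a detection p under 0.01. Of 13675 probes tested, 55.3% were called changed (Benjamini-Hochberg adjusted p under 0.05 in limma). Higher in TRPM2-AS siRNA arrays were 26.2% of the tested probes and lower 29.1%, and the median log2 fold change was -0.02. Of the epithelial markers 4 of 5 tested were lower with TRPM2-AS siRNA (summed intensity 7685 to 8428 against 13740 to 16250 in control siRNA arrays) and KRT8 did not pass. The simple-epithelium keratins KRT8 and KRT18 were detected on all arrays, and E-cadherin (CDH1) by all 3 TRPM2-AS siRNA arrays but by 0 of 4 control siRNA arrays. Of the luminal prostate markers 4 of 6 had a probe and 0 were tested (summed intensity 156.5 to 192 with TRPM2-AS siRNA, 128.5 to 182.4 with control siRNA). KLK3, KLK2 and FOLH1 were detected on 0 arrays. TMPRSS2 was detected on 2 of 3 TRPM2-AS siRNA arrays and on 1 of 4 control siRNA arrays. Of the blood and myeloid markers CD68 was lower with TRPM2-AS siRNA, CD14 did not pass, and PTPRC, CD3E and ITGAM were detected on 0 arrays (summed intensity 854.1 to 1029 with TRPM2-AS siRNA, 2297 to 2593 with control siRNA). Of 6 fibroblast and endothelial markers COL1A1 was higher and 5 were detected on 0 arrays (summed intensity 323.1 to 347.2 with TRPM2-AS siRNA, 235.1 to 257.2 with control siRNA). The part of these shifts in the results below was not tested. In bulk RNA, fewer cells that express a gene and less RNA per cell cannot be told apart.

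The remaining raw column, whose heading calls it an siRNA array, followed no sample (highest Spearman rho 0.832 against 1 for each of the other columns) and was left out. Normalized together with the others, it lay below every traced TRPM2-AS siRNA array at all 10 tested member probes. At each of them except RELB it also lay within or below the range of the control siRNA arrays. For TNFAIP3 it read 6.88, against 9.99 to 10.13 in the traced TRPM2-AS siRNA arrays and 7.17 to 7.45 in control siRNA arrays. With this column kept as a TRPM2-AS siRNA array, 6 in place of 9 member probes were called higher (limma adjusted p), and RELA (adjusted p = 0.175), NFKBIE (adjusted p = 0.0659) and BCL3 (adjusted p = 0.136) no longer passed.

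**Figure D2:**
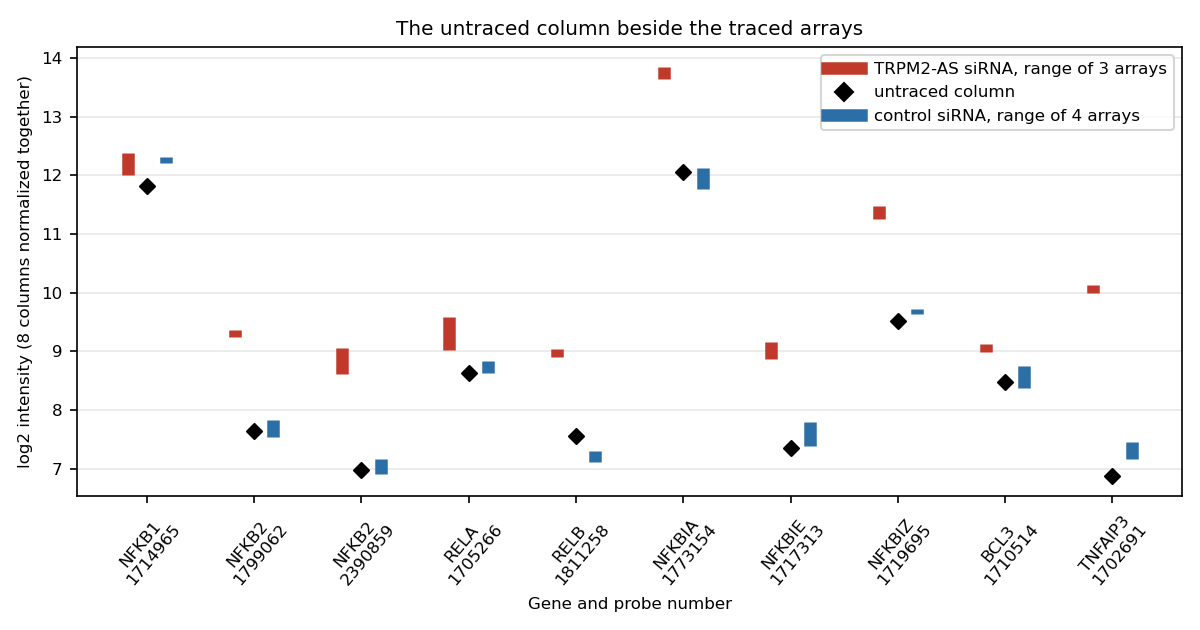
Log2 intensity of the 10 tested member probes (gene and probe number on the horizontal axis) in the untraced column (black diamonds), beside the range of 3 traced TRPM2-AS siRNA arrays (red) and of 4 control siRNA arrays (blue), all 8 columns normalized together. No diamond reaches a red bar, as at TNFAIP3, with 6.88 against 9.99 to 10.13.

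Subunit and inhibitor transcripts were mostly higher after TRPM2-AS siRNA. Of the 14 member probes 10 were tested, 9 rose and 0 fell. Among all probes tested 26.2% were higher and 29.1% lower, 55.3% in either direction. The 9 rose by 1.43-fold to 7.05-fold and covered 8 genes, and in all 9 the groups did not overlap, against 26.8% of all probes apart and higher and 29.2% apart and lower. Called and at least 2-fold higher were 7 member probes and lower 0, against 7.58% and 9.77% of all probes. The median log2 fold change of the 10 was 1.68. The exception was NFKB1, and REL was not detected. The members were chosen with earlier results of these data known, so these shares are a description. Values below are log2 intensities after background correction and quantile normalization, given for TRPM2-AS siRNA replicates 1, 2 and 4 and then for control siRNA replicates 1 to 4.

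**Figure D3:**
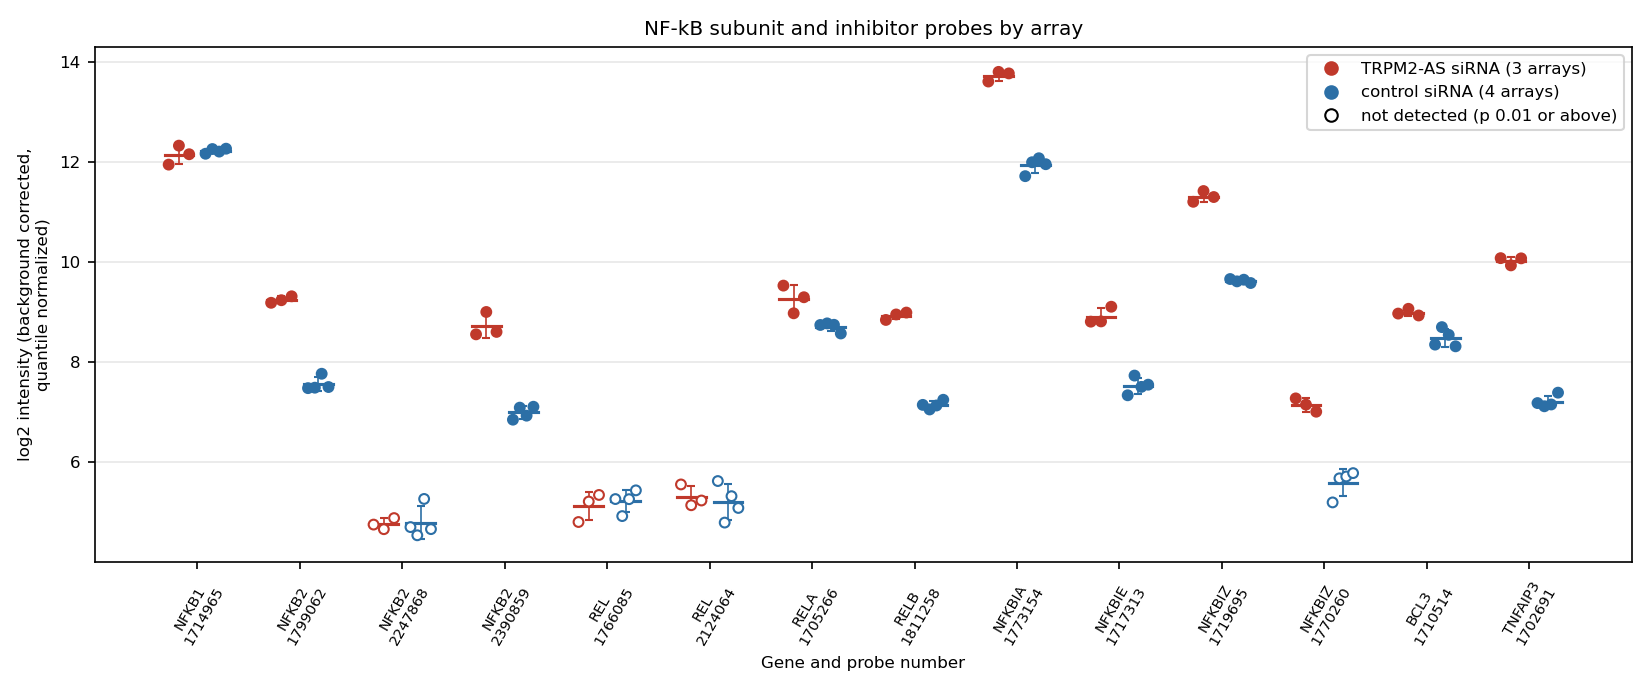
Log2 intensity of the 14 member probes (gene and probe number on the horizontal axis) on each array, with 3 TRPM2-AS siRNA arrays in red, 4 control siRNA arrays in blue, open circles for arrays below detection, and lines and bars for mean and SD. The groups are apart for TNFAIP3 (means 10.03 and 7.21) and overlap for NFKB1 (means 12.14 and 12.22).

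Among inhibitors, TNFAIP3 (probe ILMN_1702691) had the largest change. It read 10.08, 9.93 and 10.07 with TRPM2-AS siRNA, against 7.18, 7.15, 7.12 and 7.39 with control siRNA. The lowest TRPM2-AS siRNA array lay well above the highest control array. It rose 7.05-fold (log2 fold change 2.82 ± 0.12 SE, limma adjusted p = 3.71e-08), and its rank among 13675 fold changes was 53. Its 95% interval of 2.56 to 3.07 lay above that of every other member.

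NFKBIA (ILMN_1773154), the inhibitor that retains RELA dimers and is resynthesised after each round of activation, read 13.61, 13.80 and 13.77 with TRPM2-AS siRNA, against 11.72, 12.07, 11.99 and 11.96 with control siRNA. Replicate 1 was the lowest array of each group, and the groups were apart. It rose 3.46-fold (log2 fold change 1.79 ± 0.12 SE, limma adjusted p = 7.69e-07). NFKBIE (ILMN_1717313), which prefers REL and RELA dimers, read 8.81, 8.81 and 9.11 with TRPM2-AS siRNA, against 7.34, 7.51, 7.73 and 7.55 with control siRNA, again without overlap. It rose 2.60-fold (log2 fold change 1.38 ± 0.13 SE, limma adjusted p = 8.37e-06).

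NFKBIZ, the nuclear IkB zeta induced by interleukin 1 and Toll-like receptor signals, was measured by 2 probes that the annotation assigns to different RefSeq transcripts. ILMN_1719695 read 11.20, 11.42 and 11.30 with TRPM2-AS siRNA, against 9.66, 9.65, 9.61 and 9.58 with control siRNA. Its control arrays were the tightest of the 10 tested member probes (SD 0.04), and it rose 3.21-fold (log2 fold change 1.68 ± 0.11 SE, limma adjusted p = 5.25e-07). ILMN_1770260 was detected by all 3 TRPM2-AS siRNA arrays but by 0 of 4 control siRNA arrays. It read 7.28, 7.15 and 7.01 with TRPM2-AS siRNA, against 5.20, 5.72, 5.68 and 5.78 with control siRNA. It was at least 2.12-fold higher, taking for each control array the dimmest detected probe as a floor, and it was not tested because the filter asks for detection on 4 arrays. The 2 probes moved in the same direction.

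BCL3 (ILMN_1710514), a nuclear IkB protein that partners p50 and p52 homodimers, read 8.97, 9.07 and 8.93 with TRPM2-AS siRNA, against 8.35, 8.55, 8.70 and 8.32 with control siRNA. The groups did not overlap, and control siRNA replicate 3 was the control nearest to the TRPM2-AS siRNA arrays. It rose 1.43-fold (log2 fold change 0.51 ± 0.13 SE, limma adjusted p = 0.00549), the smallest of the changes that passed.

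Among subunits, RELB and NFKB2, the pair that forms the dimer of the non-canonical pathway, rose by similar amounts. RELB (ILMN_1811258) read 8.84, 8.95 and 8.99 with TRPM2-AS siRNA, against 7.15, 7.13, 7.05 and 7.25 with control siRNA. All arrays of each group fell in a narrow band (SD 0.08 in both), and RELB rose 3.44-fold (log2 fold change 1.78 ± 0.11 SE, limma adjusted p = 3.67e-07). For NFKB2, ILMN_1799062 read 9.19, 9.24 and 9.32 with TRPM2-AS siRNA, against 7.48, 7.77, 7.49 and 7.50 with control siRNA. ILMN_2390859 read 8.56, 9.002 and 8.60 with TRPM2-AS siRNA, against 6.85, 6.93, 7.09 and 7.11 with control siRNA. In both probes the groups were apart, and they rose 3.22-fold (log2 fold change 1.69 ± 0.12 SE, limma adjusted p = 8.34e-07) and 3.31-fold (1.73 ± 0.14 SE, limma adjusted p = 2.35e-06). The remaining NFKB2 probe, ILMN_2247868, annotated to another transcript, was not detected on any of the 7 arrays (log2 intensity 4.54 to 5.27, detection p 0.0501 to 0.92).

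RELA (ILMN_1705266), the p65 subunit and main transactivator of the canonical dimer, read 9.53, 8.98 and 9.30 with TRPM2-AS siRNA, against 8.74, 8.75, 8.77 and 8.57 with control siRNA. Its TRPM2-AS siRNA arrays spread more than its control arrays (SD 0.28 and 0.09), with replicate 2 near the controls, and the groups did not overlap. It rose 1.47-fold (log2 fold change 0.56 ± 0.14 SE, limma adjusted p = 0.00624). NFKB1 (ILMN_1714965), the precursor of p50, read 11.95, 12.33 and 12.15 with TRPM2-AS siRNA, against 12.16, 12.21, 12.26 and 12.27 with control siRNA. The TRPM2-AS siRNA arrays lay on either side of the controls. Its log2 fold change was -0.08 ± 0.12 SE, with a 95% interval of -0.35 to 0.19 (limma adjusted p = 0.595), and the interval lay below that of every other tested member. The difference between NFKB1 and its partners was not tested.

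REL, the subunit c-Rel of lymphoid cells, had 2 probes, ILMN_1766085 and ILMN_2124064, and neither was detected on any array. Their log2 intensities ran from 4.81 to 5.44 and from 4.79 to 5.62 over all 7 arrays, with detection p from 0.0448 to 0.435 and from 0.0198 to 0.445, so a difference in REL was not detectable on these arrays.

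**Figure D4:**
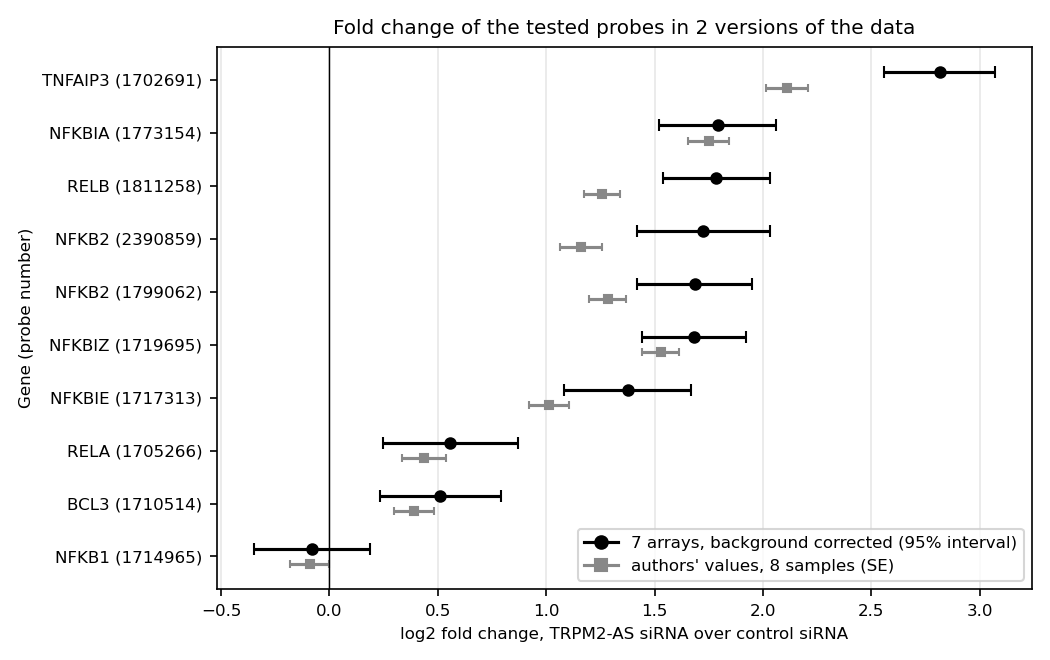
Log2 fold change, TRPM2-AS siRNA over control siRNA, of the 10 tested member probes in 7 background-corrected arrays (black circles, 95% interval) and in the authors' processed values of 8 samples (grey squares, SE). TNFAIP3 stands highest in both (2.82 and 2.11), and NFKB1 is the only probe whose black interval includes 0.

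The authors' processed values, which include TRPM2-AS siRNA replicate 3, gave the same 9 probes higher, with the 4 samples of each group apart in all 9. There log2 fold changes ran from 0.39 to 2.11 for these 9 (limma adjusted p from 9.71e-12 for TNFAIP3 to 0.00136 for RELA), where 60.1% of all probes were called, 28.9% higher and 31.2% lower. They are on a scale without background subtraction, on which folds of dim probes are smaller. TRPM2-AS siRNA replicate 3, seen in that table, had an intensity of 931.6 for TNFAIP3, against 1203, 1102 and 1200.5 in TRPM2-AS siRNA replicates 1, 2 and 4 and 245.4 to 275.7 in control siRNA samples. NFKBIA in replicate 3 was 14175, within the 12604 to 14365 of the other TRPM2-AS siRNA samples, and control siRNA samples had 3526 to 4507. For NFKB1 replicate 3 had 4541, between the 4131 and 5312 of the other TRPM2-AS siRNA samples, and control siRNA samples had 4776 to 5114.

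The rest of the pathway was read from 6 lists by role, 113 genes of which 106 had a probe and 73 were tested. Of these 38 were higher and 14 lower (71.2% called with 1 probe per gene, against 55.3% of all probes). With 1 probe per gene over the whole array, 5280 of 9272 were called changed. The lists were chosen with earlier results of these data known, so their shares are a description. The IKK complex and the kinases above it were split, 6 of the 12 tested being higher and 5 lower. Among all probes 26.2% were higher and 29.1% lower. The median log2 fold change of these 12 was 0.01, and -0.01 with 1 median shift per array. IRAK2, of the interleukin 1 receptor-associated kinase family, rose 5.77-fold, TANK, a TRAF-binding adaptor, 1.89-fold and IKBKE, an IKK-related kinase, 1.59-fold. The kinase adaptor TAB1 fell 2.04-fold, the catalytic subunit IKBKB 1.63-fold and the regulatory subunit IKBKG (NEMO) 1.41-fold.

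TRAF, cIAP and ubiquitin ligase genes were 5 of 16 higher and 4 lower (median 0.20), shares near the 26.2% higher and 29.1% lower of all probes. The ubiquitin ligase BIRC2 (cIAP1) rose 2.91-fold, RBCK1, a subunit of the linear ubiquitin ligase, 2.23-fold and the adaptor MYD88 1.55-fold. BTRC, the receptor protein of the ligase that tags phosphorylated IkB, was detected by 0 of 3 TRPM2-AS siRNA arrays and by all 4 control siRNA arrays and was at least 2.10-fold lower. It is 1 of the 4 lower genes and passed the detection filter through the control siRNA arrays alone, so no p is given for it, and a gene detected by TRPM2-AS siRNA arrays alone could not be tested. SKP1, of the same ligase, fell 1.98-fold and the conjugating enzyme UBE2N 1.63-fold. Of NF-kB inhibitors outside the members, 4 of 13 were higher and 3 lower (median 0.12), again near the shares of all probes. The ribonuclease ZC3H12A (regnase 1), which degrades cytokine transcripts, rose 3.64-fold, RNF11, a partner of A20, 2.32-fold and the deubiquitinase CYLD, detected on 1 of 4 control arrays, 2.45-fold as fitted. COMMD1 fell 1.64-fold, the A20-binding protein TNIP1 1.63-fold and N4BP1, detected on 1 of 3 TRPM2-AS siRNA arrays, 1.84-fold as fitted. PDLIM2 was detected by all 3 TRPM2-AS siRNA arrays but by 0 of 4 control siRNA arrays and was at least 1.62-fold higher. NFKBIB, the IkB beta gene, had a log2 fold change of -0.03 (limma adjusted p = 0.925).

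Receptors that feed NF-kB were 6 of 8 tested higher and 2 lower (median 0.48), against 26.2% higher and 29.1% lower among all probes. Of 16 receptors with a probe, 6 were detected on no array: TNFRSF1B, IL1R1, TLR2, TLR3, CD40 and TNFRSF11A. The TRAIL receptors TNFRSF10A and TNFRSF10B rose 2.60-fold and 2.21-fold and the interleukin 1 receptor accessory chain IL1RAP 1.53-fold, while EGFR fell 3.27-fold and TNFRSF21 1.30-fold. TLR4, detected by all 3 TRPM2-AS siRNA arrays but by 0 of 4 control siRNA arrays, was at least 3.77-fold higher. No tested gene of the 2 lists of known NF-kB targets was lower on the traced arrays, and 1 intracellular or surface target was lower in the authors' values. All 6 tested secreted targets rose (median 4.09), where 26.2% of all probes were higher. CXCL6 rose 1.69-fold, LIF 3.17-fold and CXCL2, detected on 2 of 4 control arrays, 8.37-fold as fitted. The cytokines CXCL8, IL1B and IL6 rose 34.7-fold, 42.0-fold and 59.1-fold. Of 18 secreted targets with a probe, 6 were detected on no array: CXCL3, CXCL5, CXCL10, CCL2, CCL5 and CSF1. TNF and CSF3 were each detected on 1 of 3 TRPM2-AS siRNA arrays and on 0 of 4 control siRNA arrays. The chemokine gene CCL20 was at least 10.6-fold higher, the cytokine genes LTB and IL1A were at least 4.04-fold and at least 3.55-fold higher, and CXCL1 was at least 2.58-fold higher, each one detected by all 3 TRPM2-AS siRNA arrays and 0 of the 4 control siRNA arrays. Of 18 intracellular and surface targets tested 11 rose (median 0.58), where 26.2% of all probes were higher. The 11 rose between 1.38-fold for GADD45B and 10.2-fold for the urokinase receptor PLAUR. ICAM1, VCAM1 and BCL2A1 were detected on 0 arrays. MMP9 rose 9.11-fold, SOD2 4.19-fold, BCL2L1 1.54-fold and CCND1 1.45-fold. PTGS2 was detected by all 3 TRPM2-AS siRNA arrays but by 0 of 4 control siRNA arrays, and no fold is given for it.

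**Figure D5:**
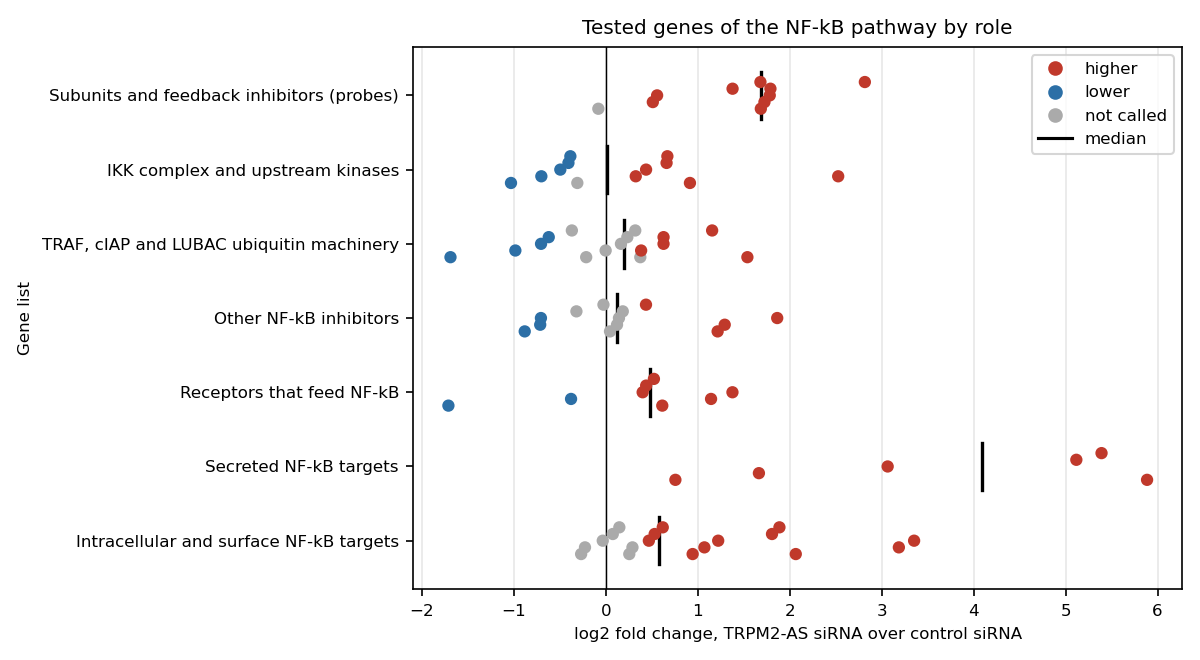
Log2 fold change, TRPM2-AS siRNA over control siRNA, of the tested member probes (top row) and of the tested genes of 6 pathway lists, with higher in red, lower in blue, not called in grey and a black bar at the median. Medians are 1.68 for the members, 0.01 for the IKK list and 4.09 for secreted targets.

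The probes whose pattern over the 7 arrays was nearest to NFKBIA and TNFAIP3 were taken by the root mean square difference of log2 values, each set relative to its control mean, among 11854 named probes. For NFKBIA these were YY2 with 0.046, the interferon-induced exonuclease ISG20 with 0.0512 and the kinase RIOK3 with 0.0778. For TNFAIP3 they were the receptor GPR65 with 0.122, the growth factor KITLG with 0.136 and the calcium-binding protein S100P with 0.151. The measure is a description over arrays that share the same 2 groups.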

How the data were processed

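Illumina bead arrays measured total RNA of 8 samples. Per the file headers, 1 deposited table gives each probe's non-normalized intensity with its detection p-value. Another deposited table gives processed intensity of all 8 samples; from the values it is quantile normalized without background subtraction, and the submitters' processing notes name BeadStudio and limma, without versions or roles. Raw columns were traced to samples by identical ranking of 48798 probes in the processed table; 7 of 8 matched. For these 7, neqc in limma 3.58.1 (R 4.3.3) subtracted background estimated from detection p-values, added an offset of 16, quantile normalized the arrays and took log2. Quantile normalization would hide a change common to the whole transcriptome. The 13675 probes that 4 or more arrays detected (p under 0.01) were compared with lmFit and eBayes, two-sided, with Benjamini-Hochberg adjustment over all of them. This filter can admit a probe through control siRNA arrays alone, but not through TRPM2-AS siRNA arrays alone. For a probe that 1 group did not detect on any array, an "at least" fold sets the mean of the detecting group against a floor, on each undetecting array the dimmest detected signal or the probe's own, whichever was larger. Gene names came from the platform annotation. Pathway genes used the tested probe with the highest mean; of each list the 3 highest and 3 lowest fold changes past the threshold are named, as are genes detected on all arrays of one group and none of the other. NFKBIB, and the secreted, intracellular and surface targets detected on 0 or 1 arrays, were named after their values were seen. So were the receptors detected on no array. The members and lists were chosen with earlier results of these data known. The fit was tested on simulated data. The number of arrays limits the precision (SE 0.11 to 0.14 for the member probes). Alternatives covered background correction, offset, normalization, filters, probe per gene, variance model, array weights, the authors' values, the replicate block, single samples left out, and the untraced column, the last one added after seeing the data. Housekeeping genes, 10 tested, had 2 higher and 1 lower. Their summed intensity was 121700 to 126000 with TRPM2-AS siRNA and 103900 to 111700 with control siRNA.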

Additional observations from a re-analysis of the deposited data

Results flagged for a closer look

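Of 42 groups of 4 samples checked at member probes, in both tables, 6 held a sample far from the other 3 (the gap to the nearest sample, over the whole range, was above Dixon's 95% critical value). Chance alone picks out about 1 in 20 independent groups. The same control siRNA samples enter from both tables, so the 42 groups are not independent. The flags for NFKB2 (ILMN_1799062) and RELA each count in both tables. NFKB2 (ILMN_1799062) was high in control siRNA replicate 2, with a log2 intensity of 7.768, and 8.3556 in the authors' processed values. RELA was low in control siRNA replicate 4, with 8.5727, and 8.9462 in the authors' processed values. In the authors' processed values NFKB2 (ILMN_2390859) was high in TRPM2-AS siRNA replicate 2, with 9.2975, and NFKBIA was low in TRPM2-AS siRNA replicate 1, with 13.622. None of these 4 probes lost its call without that sample. In the untraced column, RELB read 7.5597 on the log2 scale, between the traced TRPM2-AS siRNA arrays (8.90 to 9.05) and the control siRNA arrays (7.11 to 7.30); it was the only detected member probe there above every control array.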

How the results depend on the processing

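Under 28 alternatives (27 for NFKB2 probe ILMN_2390859) each of the 9 member probes that rose stayed higher and past the threshold, with log2 fold changes of 2.07 to 2.88 for TNFAIP3, 1.68 to 1.85 for NFKBIA, 0.348 to 0.704 for RELA and 0.348 to 0.586 for BCL3 (highest limma adjusted p of any, 0.0233). NFKB1 passed under none of the 28 (-0.173 to 0.0168) and turned to 0.0168 without TRPM2-AS siRNA replicate 1. With 1 sample left out, 9 member probes changed each time. So did 47 to 55 pathway genes and 6812 to 7336 of all probes on the traced arrays (52 and 7564 with every array), and 52 to 59 and 7626 to 8440 in the authors' values. Same-numbered samples deviated together in part only (correlations -0.07 to 0.37, replicates 1 and 4 correlating best with their own number), so replicate numbers were not taken as pairs. With the replicate block 9 member probes, 51 pathway genes and 7688 probes changed on the traced arrays, and 9, 56 and 8626 in the authors' values; it changed no call of a member. NFKBIZ probe ILMN_1770260 had a log2 fold change of 1.55 under each of 3 looser filters. Detection on at least 3 arrays admits it through the TRPM2-AS siRNA arrays alone, so no p is given there. With detection at p under 0.05, which control siRNA replicates 2, 3 and 4 also met, it passed (limma adjusted p = 2.26e-05). With no filter its control signal was below detection at p under 0.01, and no p is given. With the untraced column kept, an alternative chosen after seeing the data, 3445 probes and 22 pathway genes changed, and RELA, NFKBIE and BCL3 lost their calls (0.3839, 0.9716 and 0.3689). Signal over background limits REL and NFKB2 probe ILMN_2247868, which no array detected.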
